A study of Mus musculus with 20 samples.

Results

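Serotonin (5-HT) neurons of wild-type mice were compared at embryonic stage E15.5 (E for day of gestation) and at postnatal days 1 to 3 (PN), over all genes of the deposited table of developmental stages. The comparison rests on 6 of the 20 samples of the series, 3 libraries per stage, chosen by stage and genotype and by no measured value. Of the 22556 genes in that table, 14 whose level the authors' software had failed to estimate were left out, so 22542 were analysed. Of these, 11741 reached at least 1 FPKM in at least 3 of the 9 wild-type libraries of the series (3 further ones come from E11.5) and were tested, and 10801 were not. FPKM are fragment numbers divided by transcript length and by the mapped fragments of the library, a level per length. Both groups were C57BL/6 mice labelled wild type, and no label names a treatment. The cells were isolated by flow cytometry for a yellow fluorescent marker (EYFP), and the labels call them 5-HT neurons without naming the transgene that marked them. RNA of both stages was amplified with the Clontech SMARTer kit, per the labels' protocols. The PN group spans days 1 to 3, and the day of each library is not in the labels, nor is whether the libraries of a stage came from separate animals or how many animals were pooled. The p-values below therefore measure only the spread between these libraries, which may be technical. The libraries are called a, b and c within each stage, by their order in the table, and values per library are given in that order.

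Serotonin neurons lie in the raphe nuclei of the brainstem and send axons through most of the brain and spinal cord. They make serotonin from tryptophan, load it into vesicles, take it back up after release and break it down, and an ETS-family transcription factor, Pet-1 (gene Fev), acts with GATA and LIM-homeodomain factors to switch on the genes for these steps. Around birth such neurons leave the growing state of the embryo, gain ion channels and synapses, and begin to fire in mature patterns, and the study's title places the maturation of their excitability at the centre of the work.

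From E15.5 to PN, 2370 of the 11741 genes tested (20.2%) changed. A gene is called changed at 1.5-fold or more on the scale of log2(FPKM + 1) with p below 0.05 in limma after Benjamini-Hochberg adjustment. That scale understates the change of genes at low FPKM, and every adjusted p below is limma's unless another source is named. Of these, 1249 rose (10.6% of genes tested) and 1121 fell (9.55%). At least 2-fold on that scale were 1190 rises and 1024 falls, and at least 8-fold were 109 rises and 18 falls. In 2532 genes (21.6%) every PN library lay above every E15.5 library, and in 2423 (20.6%) every PN library lay below, so the stages were apart in 42.2% of genes. The median log2 change of all genes tested was 0.01. With each of the 6 libraries left out in turn, 1033 of the 2370 calls held in all 6 fits, each with fewer libraries, and 1325 to 1817 genes were called per fit. The total moved by more than 1.5 times without PN a (1325), E15.5 a (1410), PN b (1517) and E15.5 c (1551). A gene named below as risen or fallen held in all 6 unless the text gives the library whose loss ended its call. Among the genes that the authors' deposited Cuffdiff test of the same libraries did not call were Agt, C1qc, Calca, Ccl4, Ccnb1, Gabrg3, Gfra4, Glra3, Htr5b, Junb, Kcnk4, Klf2, Mir703, Nrgn, Otor, Pcp4l1, Prph, Thy1, Tuba4a and Vgf. With a pseudocount of 0.1 in place of 1, limma did not call Gng4, Kcnt1, Mt2 and Syt13, among others. Of the named genes tested across settings, 21 lost their call in the Cuffdiff test, 11 with that pseudocount and 8 with no filter on low values. FPKM summed to between 619070 and 830420 per library, and 10055 to 11275 genes per library reached 1 FPKM. The files give FPKM without read numbers, which leaves the depth unknown. The log2 values of libraries correlated with Pearson coefficients of 0.946 to 0.966 within stages and 0.840 to 0.888 between them.

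**Figure D1:**
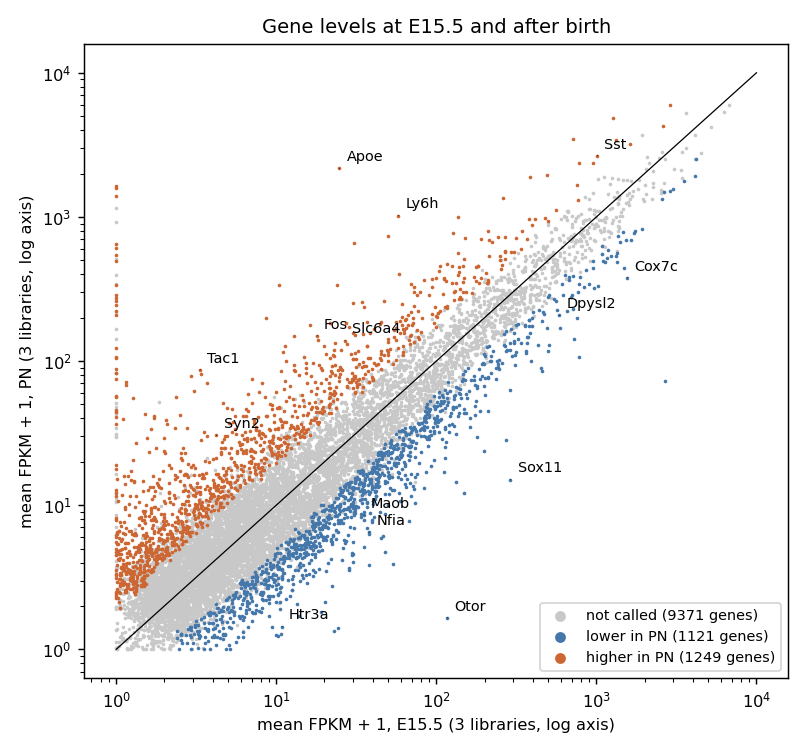
Mean FPKM + 1 of each of the 11741 genes tested at E15.5 (horizontal) and in PN (vertical), both on log axes, with 1249 genes higher in PN in orange, 1121 lower in blue and the others in grey, and the line of equal levels in black. Points at the left edge are genes listed at 0 in all 3 E15.5 libraries; Apoe, Tac1 and Ly6h stand far above the line, and Otor and Sox11 far below it.

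Library PN b stood apart by transcripts of microglia and macrophages, the brain's resident phagocytes and their relatives. The FPKM of 32 marker genes of these cells summed to 109, 163 and 90.6 FPKM at E15.5 and 1614, 7057 and 945 FPKM in PN. Every PN library exceeded every E15.5 library, and PN b was far above PN a and PN c. Of the 22 markers tested, 17 rose (77.3%, beside 10.6% of all genes), and without PN b 16 rose. Some, such as C1qc, Ccl4 and Ccl3, passed the filter only through the PN libraries, so a rise was their only possible call. The count is therefore no test of the list. Apoe, a lipid carrier that microglia and astrocytes make in quantity, was at 19.2, 44.3 and 7.80 at E15.5 and 1245, 4698 and 566 FPKM in PN (log2 change 6.22, SE 0.70, adjusted p = 1.86e-04). The complement gene C1qc was at 0.187, 0.125 and 0.153 at E15.5 and 23.5, 161 and 18.6 FPKM in PN (log2 change 5.21, SE 0.63, adjusted p = 2.97e-04). The chemokine gene Ccl4 was at 0, 0.437 and 0 at E15.5 and 32.4, 151 and 27.2 FPKM in PN (log2 change 5.54, SE 0.54, adjusted p = 6.61e-05). With each library left out in turn, the log2 change lay for Apoe between 5.39 and 6.92, for C1qc between 4.25 and 5.77 and for Ccl4 between 4.77 and 5.98. The library whose loss moved C1qc and Ccl4 by more than 1.5 times was PN b, and for Apoe these were E15.5 b, E15.5 c, PN b and PN c. Csf1r and P2ry12, which define microglia, did not pass the test and stood at 0.238 to 2.48 FPKM in the other 5 libraries and at 8.04 and 16.2 FPKM in PN b. Of the 15 genes outside small RNAs with the largest rises from a level above 0, 5 belong to this list (Apoe, Ccl4, C1qc, Ccl3 and Ccl2). The part of these cells in other results was not tested, so counts are also given without PN b, or over the fits with a library left out, where they move by more than 1.5 times.

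Markers of the neurons themselves were present in all 6 libraries. The FPKM of 12 serotonin neuron markers summed to 1706, 1237 and 980.1 FPKM at E15.5 and 1816, 2089.8 and 1049 FPKM in PN, with overlap between the stages. Of 17 astrocyte and radial glia markers tested 3 rose (17.6%) and 2 fell (11.8%), beside 10.6% and 9.55% of all genes. With 1 library left out there were 1 to 3 rises and 0 to 1 falls. Summed, the markers of this list were at 2169, 3083 and 2402 FPKM at E15.5 and 1925, 3361 and 1899 FPKM in PN, also overlapping. Oligodendrocyte lineage markers (75.9, 148 and 64.8 FPKM at E15.5 and 54.2, 52.7 and 50.4 FPKM in PN) and endothelial, mural and meningeal markers (107, 166 and 118 FPKM at E15.5 and 85.1, 216 and 146 FPKM in PN) were far lower. Haemoglobin transcripts fell, Hba-a1 from 27.9, 36.2 and 5.32 FPKM at E15.5 to 0.00635, 0 and 1.19 FPKM in PN (log2 change -3.86, SE 0.58, adjusted p = 0.00114). Its log2 change with a library left out lay for Hba-a1 between -4.65 and -3.38, moved most without E15.5 c, and near-identical globin genes may share reads. Glutamatergic neuron markers were close to 0 (sums of 0.0783 to 2.64 FPKM per library), and none of the 10 was tested. Of the 11 GABAergic and glycinergic markers 4 were tested and 2 rose (0 to 2 rises with 1 library left out, fewest without E15.5 a). Gad1, which makes GABA, was at 0.738, 1.77 and 2.34 at E15.5 and 6.35, 4.01 and 7.81 FPKM in PN (log2 change 1.44, SE 0.36, adjusted p = 0.0145). Its call ended without E15.5 a (adjusted p up to 0.0635). Th, the first enzyme of dopamine and noradrenaline synthesis, stood at 64.7 FPKM in PN b and at 3.30 to 12.1 FPKM elsewhere. In such bulk samples fewer cells of a type and less RNA per cell cannot be told apart.

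**Figure D2:**
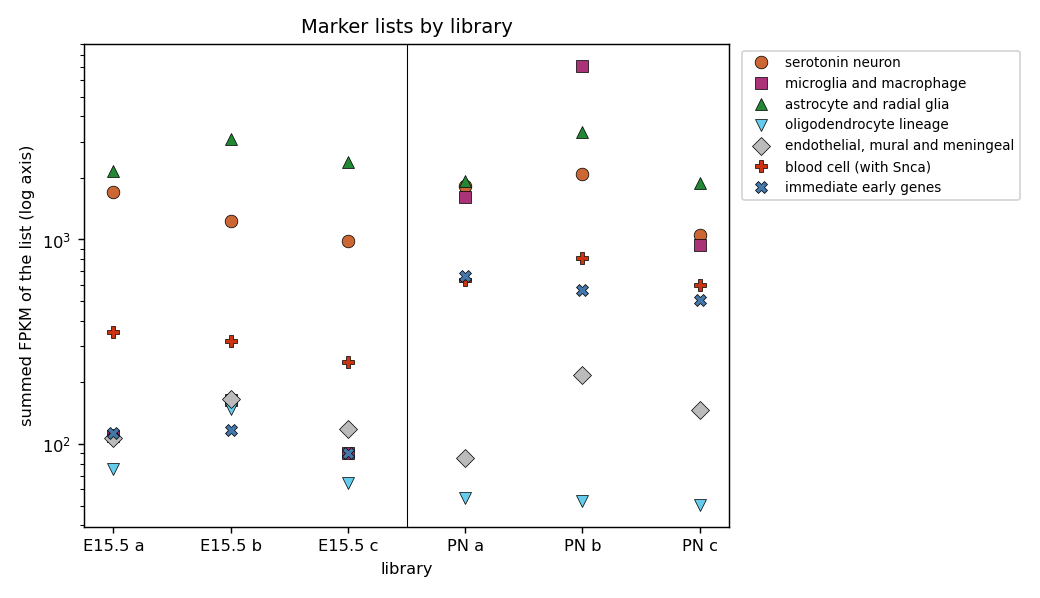
Summed FPKM of marker lists (vertical, log axis) in each of the 6 libraries (horizontal), E15.5 left of the line and PN right of it. Microglia and macrophage markers reach 7057 FPKM in PN b against 90.6 to 163 FPKM at E15.5, while the serotonin neuron sums of the stages overlap and immediate early genes are at 509 to 664 FPKM in PN.

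Among the genes that make, carry and break down serotonin, 5 of 15 tested members rose (33.3%) and 1 fell (6.67%), beside 10.6% and 9.55% of all genes. Their median log2 change was 0.72. There were 2 to 4 rises with 1 library left out, fewest without E15.5 c, PN a or PN b. The largest rise was that of Slc6a4, the membrane transporter that takes serotonin back up and the target of antidepressants. It was at 27.8, 26.3 and 23.4 at E15.5 and 159.8, 149 and 104 FPKM in PN (log2 change 2.35, SE 0.35, adjusted p = 9.80e-04), with no overlap between stages. At E11.5 it had been at 98.2 ± 54.7 FPKM (SD, n = 3), so its lowest level was at E15.5. The change from E11.5 to E15.5 (log2 change -1.76, SE 0.35, adjusted p = 0.00304), which shares the E15.5 libraries, and the later one differed by 4.103 on the log2 scale, adjusted p = 8.59e-04. Pcbd1, which recycles the tetrahydrobiopterin cofactor of tryptophan hydroxylase, was at 52.8, 43.3 and 49.6 at E15.5 and 142, 184 and 95.2 FPKM in PN (log2 change 1.47, SE 0.28, adjusted p = 0.00390). It too was lowest at E15.5, after 197 ± 35.5 FPKM (SD, n = 3) at E11.5. Further rises were those of Qdpr (log2 change 1.03, adjusted p = 0.0246), which regenerates the same cofactor, Spr (log2 change 1.04, adjusted p = 0.0370), which makes it, and Slc29a4 (log2 change 1.12, adjusted p = 0.0298), a low-affinity monoamine transporter (limma). The call of Qdpr ended without E15.5 b, E15.5 c, PN a or PN b (adjusted p up to 0.0999), that of Spr without E15.5 a, E15.5 c, PN a, PN b or PN c (adjusted p up to 0.128) and that of Slc29a4 without E15.5 a, E15.5 c, PN a or PN b (adjusted p up to 0.123).

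The enzymes that make serotonin itself did not pass the test. Tph2, neuronal tryptophan hydroxylase and the rate-limiting step, was at 64.9, 51.0 and 76.3 at E15.5 and 71.6, 133 and 69.8 FPKM in PN, with overlapping stages (log2 change 0.46, SE 0.38, adjusted p = 0.417). Ddc, which makes serotonin from 5-hydroxytryptophan, was at 170.3, 173 and 148 at E15.5 and 202, 258 and 165 FPKM in PN (log2 change 0.32, SE 0.24, adjusted p = 0.373). Slc18a2, the transporter that fills vesicles with monoamines, was at 20.1, 17.0 and 26.8 at E15.5 and 24.6, 23.9 and 18.9 FPKM in PN (log2 change 0.09, SE 0.37, adjusted p = 0.893). For each of these 3 the stages overlapped and the difference did not pass the test. The authors' NuGEN wild type at E15.5, other libraries normalised separately, had Tph2 at 218 and Slc18a2 at 83.7 FPKM, each above every PN library. It had Ddc at 203 FPKM, within the PN range. Of the breakdown enzymes, Maob, a monoamine oxidase of the outer mitochondrial membrane, fell from 34.8, 30.7 and 37.2 FPKM to 5.66, 11.8 and 5.08 FPKM (log2 change -2.13, SE 0.48, adjusted p = 0.00907). Maoa, which prefers serotonin as substrate, was at 30.4, 23.4 and 46.2 at E15.5 and 22.3, 36.1 and 33.6 FPKM in PN (log2 change -0.09, SE 0.38, adjusted p = 0.892), overlapping.

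**Figure D3:**
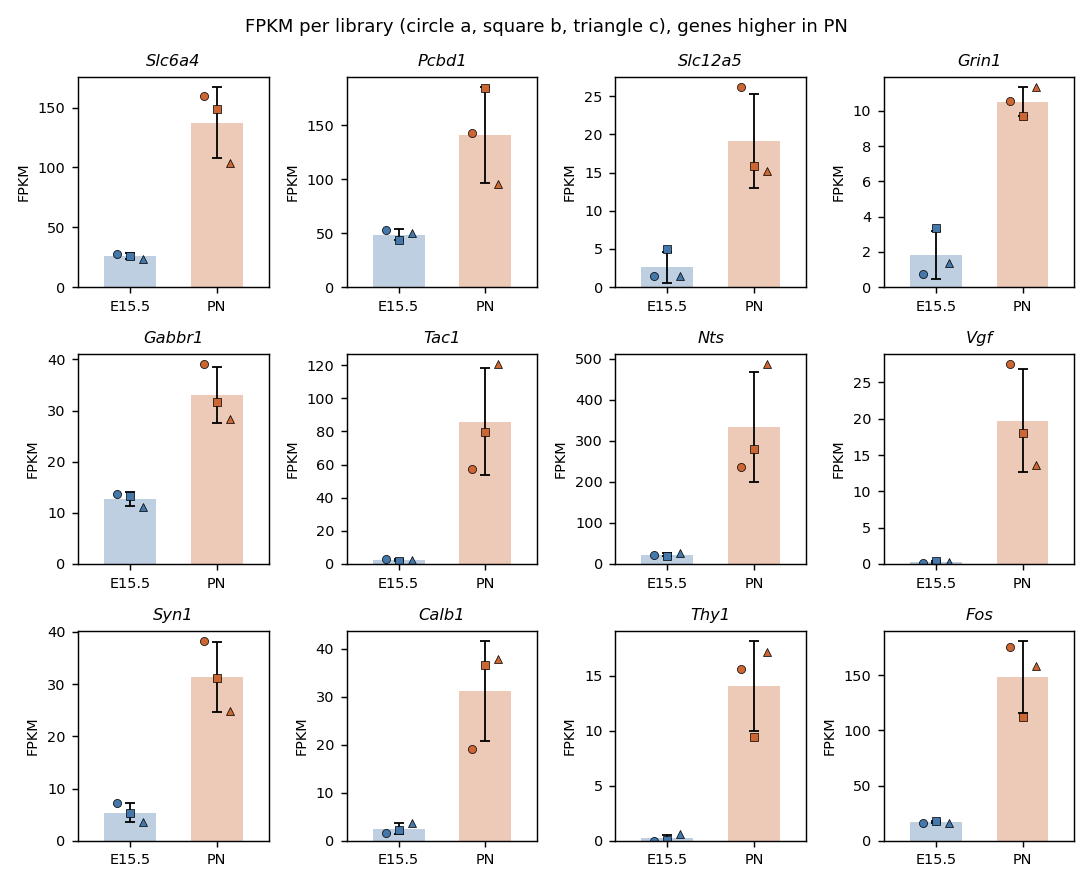
FPKM per library (vertical, separate linear axes from 0) of 12 genes higher in PN, E15.5 in blue and PN in orange, with bars at the mean of 3 libraries, whiskers of 1 SD, and circle, square and triangle for libraries a, b and c. For Slc6a4, Tac1, Syn1 and Fos, as for the other genes drawn, every PN point lies above every E15.5 point.

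Of 16 transcription factors of serotonin neurons, all tested, 1 rose (6.25%) and 3 fell (18.8%), beside 10.6% and 9.55% of all genes (median log2 change -0.30). Fev, the gene of Pet-1, was at 55.9, 34.6 and 14.97 at E15.5 and 101, 81.9 and 34.6 FPKM in PN, overlapping and not called (log2 change 1.07, SE 0.49, adjusted p = 0.145). Its E11.5 level had been 266 ± 112 FPKM (SD, n = 3). The zinc finger factors that act beside it fell. Gata3 was at 175, 121 and 152 at E15.5 and 73.8, 67.8 and 77.1 FPKM in PN (log2 change -1.01, SE 0.26, adjusted p = 0.0173). Gata2 was at 44.5, 38.8 and 20.3 at E15.5 and 15.6, 10.7 and 13.2 FPKM in PN (log2 change -1.27, SE 0.35, adjusted p = 0.0245). Both pairs of stages were apart, yet the call of Gata3 ended without E15.5 a, PN a or PN b (adjusted p up to 0.0709) and that of Gata2 without E15.5 a, E15.5 b, PN b or PN c (adjusted p up to 0.104). Insm1, a zinc finger factor of newly made neuroendocrine cells and neurons, was at 11.1, 10.1 and 6.56 at E15.5 and 2.01, 1.12 and 1.15 FPKM in PN (log2 change -2.06, SE 0.35, adjusted p = 0.00221). Lmx1b, the LIM-homeodomain partner of Pet-1, was at 5.69, 7.31 and 5.19 at E15.5 and 0.686, 7.18 and 2.499 FPKM in PN (log2 change -0.95, SE 0.54, adjusted p = 0.242), with PN b inside the E15.5 range. Engrailed 1 (En1), a homeodomain factor of the anterior hindbrain, was at 42.3, 24.6 and 21.6 at E15.5 and 81.8, 59.5 and 26.3 FPKM in PN (log2 change 0.82, SE 0.46, adjusted p = 0.229). The list had 1 to 3 falls with 1 library left out, fewest without E15.5 a or PN b. The 1 riser, Egr1, is an activity-induced factor that stands with the immediate early genes further on.

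Some markers of young, growing neurons fell. Of 12 such genes tested, 5 fell and the other 7 were not called (median log2 change -0.48), and 5 of the 5 calls held with each library left out in turn. Sox11, a SoxC factor that switches on genes of newly born neurons, fell from 336, 209 and 323 FPKM to 16.9, 12.1 and 13.2 FPKM (log2 change -4.25, SE 0.31, adjusted p = 5.67e-06), the largest fall outside Otor and small RNAs among genes with at least 10 FPKM at E15.5. Nrep (D0H4S114 in the table), a protein of regenerating and migrating cells, was at 755, 636 and 889 at E15.5 and 149, 224 and 221 FPKM in PN (log2 change -1.95, SE 0.31, adjusted p = 0.00155). Cd24a, a surface protein of immature neurons, was at 523, 335 and 649.8 at E15.5 and 101, 124 and 159 FPKM in PN (log2 change -1.94, SE 0.32, adjusted p = 0.00192). The zinc finger factor gene St18 was at 6.33, 4.82 and 5.78 at E15.5 and 0.0204, 0.365 and 0.908 FPKM in PN (log2 change -2.26, SE 0.36, adjusted p = 0.00148). The basic helix-loop-helix factor gene Neurod6 was at 9.52, 4.58 and 7.34 at E15.5 and 0.0291, 2.61 and 1.09 FPKM in PN (log2 change -1.99, SE 0.44, adjusted p = 0.00841). All 5 genes lay lower in every PN library than in any E15.5 library. Elavl4, an RNA-binding protein of neurons at all ages, was at 119, 79.2 and 207 at E15.5 and 78.8, 94.1 and 134 FPKM in PN, overlapping (log2 change -0.32, SE 0.36, adjusted p = 0.558).

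Other regulators of developmental timing moved singly. Nfia, a nuclear factor I gene that marks later-born neural cells, had reached 38.0, 32.0 and 40.7 FPKM at E15.5 from 0.172 ± 0.0182 FPKM (SD, n = 3) at E11.5, and fell to 4.71, 6.99 and 4.77 FPKM in PN (log2 change -2.56, SE 0.32, adjusted p = 3.62e-04). This change and the earlier rise, which share the E15.5 libraries, differed by -7.57 on the log2 scale, adjusted p = 8.85e-06. Its relative Nfix was at 211, 281 and 116 at E15.5 and 121, 171 and 86.9 FPKM in PN, overlapping (log2 change -0.64, SE 0.36, adjusted p = 0.232). Igf2bp2, a fetal RNA-binding protein, was at 3.23, 3.53 and 2.67 at E15.5 and 0.473, 0.192 and 0.530 FPKM in PN (log2 change -1.57, SE 0.34, adjusted p = 0.00786). Rbfox3, the splicing regulator known as NeuN, rose from 6.78, 8.94 and 3.27 FPKM to 26.8, 26.9 and 13.3 FPKM (log2 change 1.69, SE 0.47, adjusted p = 0.0254), although the call ended without E15.5 a, E15.5 c, PN a or PN b (adjusted p up to 0.0999). Among chromatin regulators, 2 of 35 tested members rose (5.71%) and 5 fell (14.3%), beside 10.6% and 9.55% of all genes. The median log2 change was 0.00, and its sign flips under median centring and quantile normalisation. Both rises lost their calls without E15.5 c, PN a or PN b, and 1 without E15.5 a. Those that fell included Ezh2, the Polycomb methyltransferase, at 10.7, 6.64 and 12.03 at E15.5 and 0.944, 1.22 and 4.20 FPKM in PN (log2 change -1.90, SE 0.43, adjusted p = 0.00998). Actl6a, the BAF complex subunit of progenitors, was at 74.9, 51.6 and 72.7 at E15.5 and 15.4, 28.1 and 15.6 FPKM in PN (log2 change -1.74, SE 0.30, adjusted p = 0.00217). Hdac1, a histone deacetylase, was at 58.6, 77.2 and 65.5 at E15.5 and 29.8, 20.8 and 16.3 FPKM in PN (log2 change -1.58, SE 0.30, adjusted p = 0.00359). Of 8 Hox, Meis and Pbx genes tested 2 fell and 1 rose (1 to 2 falls with 1 library left out, fewest without E15.5 b, E15.5 c, PN a or PN b). Meis1 was at 6.55, 7.78 and 9.91 at E15.5 and 0.893, 1.36 and 1.73 FPKM in PN (log2 change -1.96, SE 0.39, adjusted p = 0.00460). Pbx4, the riser, was at 25.5, 23.9 and 11.46 at E15.5 and 65.6, 51.0 and 46.1 FPKM in PN (log2 change 1.44, SE 0.34, adjusted p = 0.0119). The call of Pbx4 ended without PN a (adjusted p up to 0.0558).

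**Figure D4:**
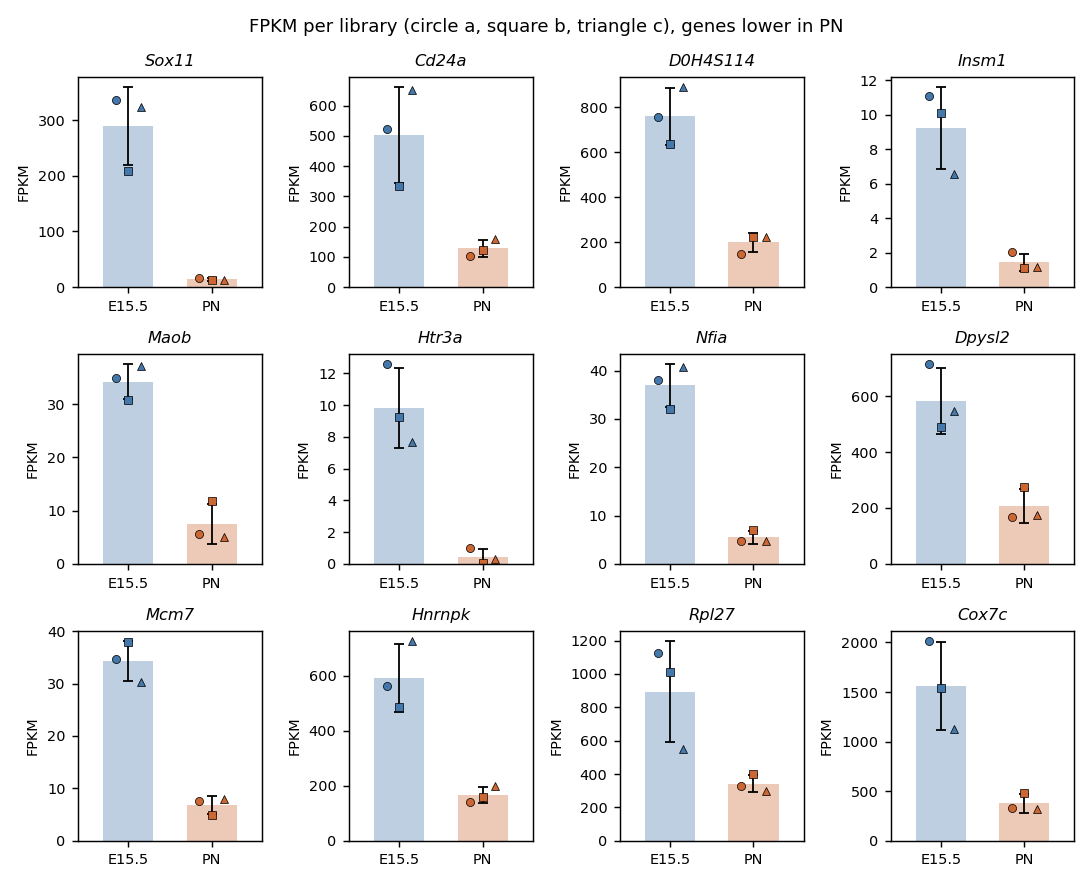
FPKM per library (vertical, separate linear axes from 0) of 12 genes lower in PN, drawn as bars of the mean of 3 libraries with whiskers of 1 SD and a point per library (circle a, square b, triangle c). Sox11 falls from 209 to 336 FPKM at E15.5 to 12.1 to 16.9 FPKM in PN, and no gene drawn has a PN point above an E15.5 point.

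Some ion channels that set firing rose in each of the 4 lists examined, with a single fall. Most of these calls did not hold with each library left out in turn. Of all genes tested, 10.6% rose. Rises were 5 of 22 tested voltage-gated potassium channels and their subunits, 4 of 15 other potassium and HCN channels, 3 of 12 sodium channels and 5 of 19 calcium channels. Their median log2 changes were 0.76, 0.79, 0.79 and 0.65. Only 1, 2, 0 and 1 of these calls, in that order, held with each library left out in turn, and without PN b the rises numbered 1, 4, 1 and 3. The voltage-gated potassium channels had 1 to 2 rises with 1 library left out, fewest without PN a or PN b, and the calcium channels 1 to 4 rises with 1 library left out, fewest without PN a. The other potassium channels fell to 2 rises without E15.5 b, and the last sodium channel call was lost without E15.5 c. Kcnc4, a Shaw-type channel of fast-spiking cells, was at 0.296, 0.120 and 0.273 at E15.5 and 3.40, 7.14 and 6.28 FPKM in PN (log2 change 2.38, SE 0.32, adjusted p = 5.15e-04). Kcnk4, a mechanosensitive leak channel, was at 0, 0.423 and 0 at E15.5 and 8.46, 3.77 and 3.73 FPKM in PN (log2 change 2.41, SE 0.34, adjusted p = 7.92e-04). Kcnt1, a sodium-activated potassium channel, was at 0.657, 0.832 and 0.449 at E15.5 and 4.36, 1.98 and 4.84 FPKM in PN (log2 change 1.47, SE 0.35, adjusted p = 0.0127). Each of the 3 was below 1 FPKM in every E15.5 library and above it in every PN library. Cacng3, an auxiliary subunit that also carries AMPA receptors to the membrane, was at 17.4, 15.7 and 7.71 at E15.5 and 54.8, 67.8 and 36.7 FPKM in PN (log2 change 1.92, SE 0.38, adjusted p = 0.00450), after 0.0593 ± 0.0567 FPKM (SD, n = 3) at E11.5. Fgf14, an intracellular partner of sodium channels, fell from 8.27, 5.99 and 7.27 FPKM to 2.61, 2.52 and 3.24 FPKM (log2 change -1.10, SE 0.31, adjusted p = 0.0273), and its call ended without any 1 of the 6 libraries (adjusted p up to 0.0952).

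Among receptors for inhibitory input, 2 of 12 GABA-A receptor subunits tested rose, and 3 did without PN b. Gabrb1 was at 10.9, 13.1 and 11.6 at E15.5 and 25.3, 28.3 and 34.98 FPKM in PN (log2 change 1.24, SE 0.29, adjusted p = 0.0118). Gabrg3 was at 0.0175, 0.0383 and 0.114 at E15.5 and 1.95, 1.36 and 2.01 FPKM in PN (log2 change 1.38, SE 0.26, adjusted p = 0.00357). The metabotropic GABA-B subunit Gabbr1 was at 13.7, 13.2 and 11.2 at E15.5 and 39.1, 31.7 and 28.4 FPKM in PN (log2 change 1.31, SE 0.31, adjusted p = 0.0125), and its call ended without PN a (adjusted p up to 0.0586). Glra3, a glycine receptor subunit, was at 0, 0.156 and 0 at E15.5 and 1.52, 1.495 and 2.19 FPKM in PN (log2 change 1.37, SE 0.26, adjusted p = 0.00392). Gphn, the scaffold gephyrin that anchors both receptor types, fell from 28.0, 26.5 and 33.3 FPKM to 6.99, 8.63 and 13.2 FPKM (log2 change -1.55, SE 0.48, adjusted p = 0.0398), a call that ended without E15.5 a, E15.5 b, E15.5 c, PN a or PN b (adjusted p up to 0.136). Slc12a5, the potassium-chloride cotransporter KCC2 that lowers chloride inside neurons, was at 1.48, 4.95 and 1.4003 at E15.5 and 26.2, 15.9 and 15.2 FPKM in PN (log2 change 2.57, SE 0.48, adjusted p = 0.00339). All 3 PN libraries lay at least 3-fold above the highest E15.5 library. Slc4a3, an anion exchanger, was at 3.19, 3.67 and 2.15 at E15.5 and 12.01, 9.42 and 11.6 FPKM in PN (log2 change 1.595, SE 0.36, adjusted p = 0.00977). Among 14 chloride transport genes tested these 2 and Slc4a10 rose, and the call of Slc4a10 ended without any 1 of the 6 libraries (adjusted p up to 0.156).

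Glutamate receptors followed. Of 12 AMPA and kainate receptor genes tested 5 rose (1 to 3 rises with 1 library left out, fewest without PN a). Of 4 NMDA receptor genes 3 rose (1 to 2 rises with 1 library left out, fewest without E15.5 b, E15.5 c, PN a, PN b or PN c), and of 7 metabotropic receptors 2 (1 to 2 rises with 1 library left out, fewest without E15.5 a, E15.5 b or PN c). Grin1, the subunit every NMDA receptor needs, was at 0.745, 3.33 and 1.35 at E15.5 and 10.6, 9.69 and 11.3 FPKM in PN (log2 change 2.14, SE 0.39, adjusted p = 0.00325). Gria1, an AMPA receptor subunit, was at 1.03, 2.80 and 2.47 at E15.5 and 8.30, 7.32 and 10.4 FPKM in PN (log2 change 1.68, SE 0.36, adjusted p = 0.00685). Gria2, the subunit that blocks calcium entry, was at 29.3, 38.7 and 47.6 at E15.5 and 28.5, 32.2 and 59.4 FPKM in PN, overlapping (log2 change 0.01, SE 0.42, adjusted p = 0.995). Grm2, an inhibitory metabotropic receptor, was at 0.642, 0.277 and 0.267 at E15.5 and 4.504, 4.66 and 3.17 FPKM in PN (log2 change 1.87, SE 0.35, adjusted p = 0.00359). All 3 risers were at or below 3.33 FPKM in each E15.5 library.

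Of 14 serotonin receptors, 4 passed the filter on low values, 1 rose and 1 fell. Htr5b, a serotonin receptor gene that is a pseudogene in humans, was at 0, 0.511 and 0.432 at E15.5 and 7.37, 9.34 and 9.35 FPKM in PN (log2 change 2.90, SE 0.31, adjusted p = 1.34e-04). Htr3a, the serotonin-gated ion channel, fell from 12.6, 9.23 and 7.68 FPKM to 0.974, 0.0416 and 0.301 FPKM (log2 change -2.94, SE 0.35, adjusted p = 3.01e-04). It had been at 0.133 ± 0.230 FPKM (SD, n = 3) at E11.5, so E15.5 was its highest stage, and the earlier and later changes differed by -6.19 on the log2 scale, adjusted p = 9.83e-05. Htr1a, the autoreceptor that slows firing of these neurons, was at 0.191, 1.05 and 1.42 at E15.5 and 1.30, 0.908 and 2.72 FPKM in PN (log2 change 0.49, SE 0.37, adjusted p = 0.375), with overlap and levels close to the filter.

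Receptors for other inputs to the raphe had 6 rises and 1 fall among 20 tested (3 to 6 rises with 1 library left out, fewest without E15.5 b). Adra1b, an alpha-1 adrenergic receptor through which noradrenaline excites serotonin neurons, was at 3.43, 0.827 and 0.658 at E15.5 and 9.89, 10.4 and 7.19 FPKM in PN (log2 change 2.08, SE 0.41, adjusted p = 0.00485). Sstr1, a somatostatin receptor, was at 4.49, 4.05 and 3.46 at E15.5 and 18.9, 7.04 and 14.4 FPKM in PN (log2 change 1.44, SE 0.38, adjusted p = 0.0203), and its call ended without E15.5 b, E15.5 c, PN a or PN c (adjusted p up to 0.0876). The fall was that of Oprl1, the nociceptin receptor, from 64.7, 53.4 and 40.4 FPKM to 21.9, 21.0 and 29.0 FPKM (log2 change -1.10, SE 0.31, adjusted p = 0.0261), a call that ended without E15.5 a, E15.5 b, PN a or PN b (adjusted p up to 0.106). Hcrtr1, an orexin receptor, varied from 0.860 to 12.6 FPKM over the 6 libraries with no test passed (log2 change 0.75, SE 0.61, adjusted p = 0.420).

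Neuropeptide genes held some of the largest rises of the interval. Among peptides and their processing enzymes, 10 of 28 tested members rose and 1 fell (median log2 change 0.95), and 8 of the 11 calls held with each library left out in turn. Tac1, which encodes substance P and neurokinin A, was at 2.73, 1.64 and 2.63 at E15.5 and 57.2, 79.9 and 121 FPKM in PN (log2 change 4.66, SE 0.36, adjusted p = 1.07e-05). Nts, the gene of neurotensin, was at 22.8, 18.4 and 27.2 at E15.5 and 235, 279 and 487 FPKM in PN (log2 change 3.76, SE 0.46, adjusted p = 3.41e-04). Calca, which encodes calcitonin gene-related peptide, was at 0, 1.22 and 0.438 at E15.5 and 32.1, 20.3 and 31.8 FPKM in PN (log2 change 4.27, SE 0.38, adjusted p = 3.08e-05). Vgf, a secreted granule protein that nerve growth factor and activity induce, was at 0.148, 0.385 and 0.303 at E15.5 and 27.5, 18.0 and 13.6 FPKM in PN (log2 change 3.97, SE 0.34, adjusted p = 2.76e-05). For these 4 genes every PN library lay above every E15.5 library, by 8-fold or more. Sst, the gene of somatostatin, was already abundant at E15.5 and was at 1152, 1319.5 and 560.4 at E15.5 and 2974, 3005 and 1967 FPKM in PN (log2 change 1.45, SE 0.34, adjusted p = 0.0107), after 4.85 ± 1.45 FPKM (SD, n = 3) at E11.5. Penk, the enkephalin precursor, was at 549.9, 925 and 502 at E15.5 and 857, 1098 and 1277 FPKM in PN, overlapping (log2 change 0.74, SE 0.28, adjusted p = 0.0778). The 1 fall was that of Chgb, chromogranin B of secretory granules, at 368, 553 and 493 at E15.5 and 189, 243 and 199 FPKM in PN (log2 change -1.15, SE 0.23, adjusted p = 0.00570).

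Of 58 genes of vesicles and transmitter release tested, 18 rose and 1 fell (median log2 change 0.72), and 10 of the 19 calls held with each library left out in turn. There were 11 to 13 rises with 1 library left out, fewest without E15.5 b, PN a or PN c, and the fall lost its call without E15.5 a, E15.5 c, PN a or PN b. In 38 of the 58 every PN library lay above every E15.5 library, beside 21.6% of all genes. Syn2, a synapsin that tethers vesicles in reserve, was at 1.31, 3.72 and 4.64 at E15.5 and 36.0, 29.1 and 23.4 FPKM in PN (log2 change 2.93, SE 0.50, adjusted p = 0.00216). Its paralog Syn1 was at 7.17, 5.29 and 3.57 at E15.5 and 38.2, 31.2 and 24.9 FPKM in PN (log2 change 2.37, SE 0.34, adjusted p = 8.23e-04). Syt3, a calcium sensor of the synaptotagmin family, was at 1.89, 7.72 and 3.33 at E15.5 and 28.2, 40.3 and 25.1 FPKM in PN (log2 change 2.72, SE 0.52, adjusted p = 0.00406). Syt13, a member that binds no calcium, was at 3.07, 3.56 and 1.69 at E15.5 and 18.9, 13.7 and 24.5 FPKM in PN (log2 change 2.41, SE 0.44, adjusted p = 0.00307). Snap25, a SNARE of the plasma membrane, was at 263, 249.5 and 311 at E15.5 and 219, 293 and 336 FPKM in PN, overlapping (log2 change 0.03, SE 0.32, adjusted p = 0.965). Snap25 had risen before E15.5, from 35.5 ± 17.5 FPKM (SD, n = 3) at E11.5 (log2 change 3.01, SE 0.32, adjusted p = 5.67e-05), and the earlier and later changes, which share the E15.5 libraries, differed by -2.98 on the log2 scale, adjusted p = 0.00303.

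Of genes of postsynaptic scaffolds and synaptic adhesion, 7 of 39 tested members rose and 1 fell (median log2 change 0.61). There were 4 to 5 rises with 1 library left out, fewest without E15.5 a, E15.5 c, PN a or PN c. Nrgn, neurogranin, which binds calmodulin in dendritic spines, was at 0, 0 and 0.0309 at E15.5 and 4.85, 7.03 and 4.48 FPKM in PN (log2 change 2.66, SE 0.29, adjusted p = 1.45e-04). Camk2d, a calcium/calmodulin kinase subunit, was at 0.594, 1.63 and 1.16 at E15.5 and 11.52, 7.14 and 14.996 FPKM in PN (log2 change 2.497, SE 0.36, adjusted p = 8.93e-04). Nrxn2, a presynaptic adhesion molecule that meets neuroligins, was at 1.96, 2.89 and 1.30 at E15.5 and 20.6, 11.3 and 14.0 FPKM in PN (log2 change 2.41, SE 0.38, adjusted p = 0.00134), and with 10.1 ± 3.65 FPKM (SD, n = 3) at E11.5 it was lowest at E15.5. Lrrtm4, another partner of neurexins and heparan sulphate, fell from 18.8, 8.36 and 16.6 FPKM to 1.91, 1.398 and 2.33 FPKM (log2 change -2.38, SE 0.43, adjusted p = 0.00292). Calcium-binding and calmodulin-binding genes had 12 rises and 1 fall among 31 tested (median log2 change 0.73), and 7 of the 13 calls held with each library left out in turn. The fall lost its call without E15.5 a, E15.5 b, PN b or PN c. Calb1, calbindin, was at 1.65, 2.29 and 3.73 at E15.5 and 19.2, 36.7 and 37.8 FPKM in PN (log2 change 3.16, SE 0.39, adjusted p = 3.62e-04). Pcp4l1, a small calmodulin-binding protein, was at 0, 0.535 and 0.887 at E15.5 and 4.79, 10.4 and 9.30 FPKM in PN (log2 change 2.62, SE 0.41, adjusted p = 0.00135). Caln1 and Calb2 also rose, Calb2 (calretinin) from 18.6, 31.7 and 16.8 FPKM to 47.2, 144 and 86.8 FPKM (log2 change 1.92, SE 0.41, adjusted p = 0.00698) and Caln1 from 7.53, 4.602 and 3.51 FPKM to 17.5, 21.8 and 26.7 FPKM (log2 change 1.92, SE 0.35, adjusted p = 0.00325). Calm2, the calmodulin gene with the highest level, was at 3120.2, 1925 and 3024 at E15.5 and 1965, 2619 and 2952 FPKM in PN, overlapping (log2 change -0.09, SE 0.29, adjusted p = 0.861).

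**Figure D5:**
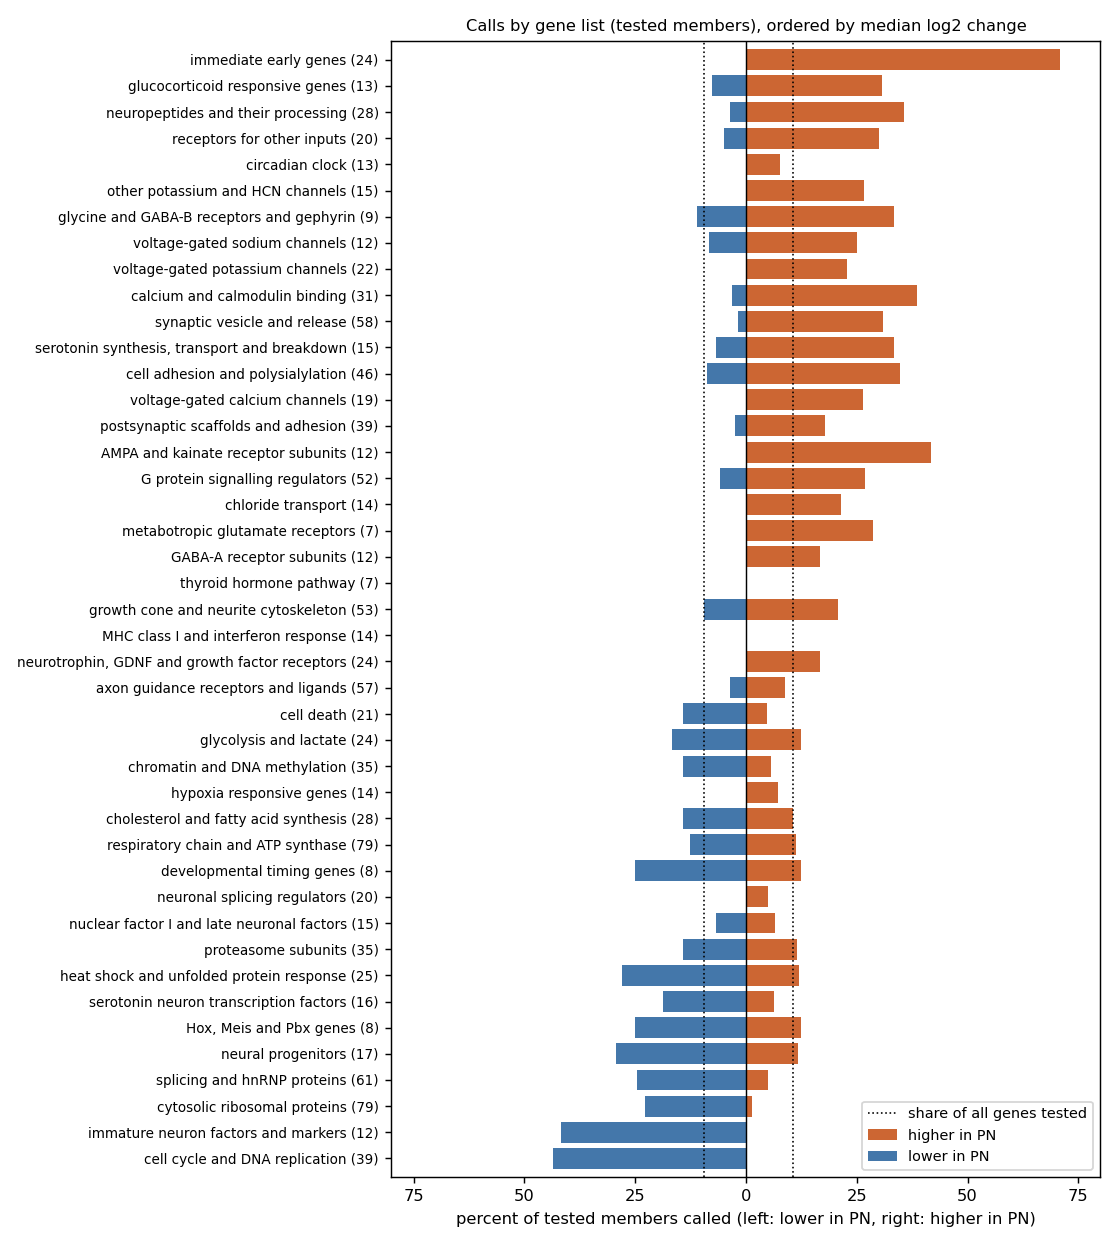
Percent of tested members of each gene list of a pathway or family (number tested in brackets; cell markers are not drawn) that rose (orange, right) or fell (blue, left), ordered by median log2 change, with dotted lines at the shares of all genes tested (10.6% and 9.55%). Among these lists, of those with 20 or more members tested, immediate early genes have the largest share of rises, 17 of 24, and cell cycle genes the largest share of falls, 17 of 39.

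Adhesion and polysialylation genes had 16 rises and 4 falls among 46 tested, and 5 of the 20 calls held with each library left out in turn. There were 5 to 12 rises with 1 library left out, fewest without E15.5 b, and 1 to 3 falls with 1 library left out, fewest without E15.5 c, PN a or PN b. Thy1, a small surface protein of mature axons, was at 0.0209, 0.0644 and 0.603 at E15.5 and 15.6, 9.44 and 17.2 FPKM in PN (log2 change 3.61, SE 0.34, adjusted p = 5.50e-05). Cntn1, contactin 1 of axons and nodes, was at 9.99, 6.72 and 11.52 at E15.5 and 43.1, 39.1 and 56.8 FPKM in PN (log2 change 2.20, SE 0.37, adjusted p = 0.00213). Cadm3, a synaptic adhesion protein, was at 3.76, 4.64 and 3.67 at E15.5 and 23.7, 13.1 and 14.4 FPKM in PN (log2 change 1.80, SE 0.34, adjusted p = 0.00346). Ncam1, the main carrier of polysialic acid, was abundant and fell from 394, 362 and 421 FPKM to 197, 199.5 and 192 FPKM (log2 change -0.99, SE 0.22, adjusted p = 0.00883). Of guidance receptors and ligands, 5 of 57 tested members rose (8.77%) and 2 fell (3.51%), with a median log2 change of 0.21. Both shares are below those of all genes, 10.6% and 9.55%. There were 2 to 4 rises with 1 library left out, fewest without E15.5 b. The falls both lost their calls without E15.5 b, E15.5 c, PN a or PN b. Sema5a, a semaphorin, was at 0.282, 0.266 and 0.278 at E15.5 and 2.48, 1.86 and 3.82 FPKM in PN (log2 change 1.51, SE 0.30, adjusted p = 0.00456). Of neurotrophin, GDNF and growth factor receptors 4 of 24 rose (2 to 4 rises with 1 library left out, fewest without E15.5 a). Gfra4, a GDNF-family co-receptor, was at 0.708, 1.71 and 0.117 at E15.5 and 7.38, 24.3 and 11.1 FPKM in PN (log2 change 2.98, SE 0.47, adjusted p = 0.00151). Ntrk2, the receptor of brain-derived neurotrophic factor, was at 5.86, 8.56 and 7.52 at E15.5 and 22.4, 21.2 and 26.8 FPKM in PN (log2 change 1.57, SE 0.33, adjusted p = 0.00683).

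Of growth cone and cytoskeleton genes, 11 of 53 tested members rose and 5 fell (median log2 change 0.34), or 7 and 3 without PN a. Tuba4a, an alpha-tubulin of mature neurons, was at 1.61, 0.684 and 1.74 at E15.5 and 33.2, 36.6 and 30.5 FPKM in PN (log2 change 3.91, SE 0.33, adjusted p = 2.24e-05). Prph, peripherin, an intermediate filament of axons, was at 0, 0 and 0.298 at E15.5 and 9.72, 4.71 and 1.77 FPKM in PN (log2 change 2.34, SE 0.42, adjusted p = 0.00295). Nefm, the medium neurofilament, fell from 11.2, 14.7 and 13.4 FPKM to 0.101, 2.63 and 3.14 FPKM (log2 change -2.46, SE 0.48, adjusted p = 0.00428). The log2 change with a library left out lay for Nefm between -2.81 and -1.85, moved most without PN a. Dpysl4, a collapsin response mediator of growth cones, fell from 197, 182 and 103 FPKM to 37.5, 35.7 and 27.8 FPKM (log2 change -2.18, SE 0.31, adjusted p = 7.69e-04). Rnd3, a GTPase that loosens actin, was at 273, 217 and 322 at E15.5 and 24.0, 33.5 and 24.4 FPKM in PN (log2 change -3.26, SE 0.31, adjusted p = 5.57e-05).

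Regulators of G protein signalling had 14 rises and 3 falls among 52 tested, and 9 of the 17 calls held with each library left out in turn. The 3 falls lost their calls without E15.5 a or PN a, and 2 of them without E15.5 b, E15.5 c or PN b. Rgs11, which like Rgs17 shortens G protein signals, was at 1.37, 3.16 and 0.491 at E15.5 and 18.0, 18.6 and 9.41 FPKM in PN (log2 change 2.68, SE 0.42, adjusted p = 0.00141). Rgs17 was at 4.86, 3.56 and 7.37 at E15.5 and 22.6, 27.5 and 32.7 FPKM in PN (log2 change 2.22, SE 0.36, adjusted p = 0.00176). Gnaz, an inhibitory alpha subunit of neurons, was at 10.5, 8.08 and 6.58 at E15.5 and 55.8, 44.8 and 34.8 FPKM in PN (log2 change 2.29, SE 0.30, adjusted p = 4.94e-04). Gng4, a gamma subunit, was at 4.62, 5.62 and 3.83 at E15.5 and 23.9, 20.2 and 21.9 FPKM in PN (log2 change 2.02, SE 0.39, adjusted p = 0.00407). Arhgdig, a GDP dissociation inhibitor found mainly in brain, was among the largest rises of all genes, at 22.1, 41.6 and 24.9 at E15.5 and 627, 903 and 432 FPKM in PN (log2 change 4.41, SE 0.43, adjusted p = 6.64e-05). Ache, the enzyme that breaks down acetylcholine, also had a large rise and was at 0.322, 4.19 and 1.65 at E15.5 and 63.9, 71.3 and 48.0 FPKM in PN (log2 change 4.54, SE 0.55, adjusted p = 2.97e-04). Ly6h, a neuronal surface protein that binds nicotinic receptors, was at 78.7, 63.6 and 28.6 at E15.5 and 1442, 919.9 and 695 FPKM in PN (log2 change 4.19, SE 0.41, adjusted p = 5.98e-05). Nnat, an imprinted gene of neurons, had the largest rise in mean FPKM of all genes tested. It was at 1547, 1319 and 951 at E15.5 and 5518, 5585 and 3461 FPKM in PN (log2 change 1.93, SE 0.26, adjusted p = 5.50e-04). The authors' NuGEN wild type at E15.5, other libraries normalised separately, had Nnat at 4849 FPKM, within the PN range.

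Cell cycle genes gave the highest share of falls among the lists with 20 or more members tested: 17 of 39 fell (median log2 change -0.99), and 10 of the 17 calls held with each library left out in turn. Without PN a 11 fell. Cdca8, a subunit of the chromosomal passenger complex, was at 24.4, 19.6 and 15.8 at E15.5 and 1.495, 1.68 and 5.75 FPKM in PN (log2 change -2.54, SE 0.70, adjusted p = 0.0243). Rrm1, a subunit of the enzyme that makes deoxynucleotides, was at 19.9, 9.97 and 19.3 at E15.5 and 2.78, 2.12 and 2.39 FPKM in PN (log2 change -2.29, SE 0.35, adjusted p = 0.00133). Mcm7, of the replicative helicase, was at 34.6, 38.0 and 30.3 at E15.5 and 7.61, 4.86 and 8.03 FPKM in PN (log2 change -2.19, SE 0.28, adjusted p = 4.54e-04). Ccnb1, cyclin B1 of mitosis, was at 3.86, 3.22 and 8.56 at E15.5 and 0, 0.0884 and 0.589 FPKM in PN (log2 change -2.28, SE 0.37, adjusted p = 0.00171). The call of Cdca8 ended without E15.5 a, E15.5 b, E15.5 c, PN a or PN b (adjusted p up to 0.0923). Pcna, the sliding clamp of DNA polymerase, was at 168, 115 and 182 at E15.5 and 97.0, 133 and 123 FPKM in PN, overlapping (log2 change -0.38, SE 0.30, adjusted p = 0.401). At E11.5 the mean FPKM of Ccnb1 was 0.185 ± 0.203 FPKM (SD, n = 3) and that of Rrm1 6.05 ± 1.10 FPKM (SD, n = 3), below their E15.5 levels. Ccnb1 passed the filter only through the E15.5 libraries, so a fall was its only possible call. Of 17 progenitor markers tested 5 fell and 2 rose (1 to 3 falls with 1 library left out, fewest without E15.5 b or PN a). The rises both lost their calls without E15.5 c, PN a or PN b, and 1 did without E15.5 a or E15.5 b. Vim, vimentin of radial glia, was at 50.5, 109.9 and 76.5 at E15.5 and 18.7, 23.5 and 24.7 FPKM in PN (log2 change -1.72, SE 0.33, adjusted p = 0.00414). Prom1, a surface protein of neural stem cells, was at 2.94, 16.3 and 14.3 at E15.5 and 0.164, 1.51 and 2.37 FPKM in PN (log2 change -2.24, SE 0.66, adjusted p = 0.0321). The call of Prom1 ended without E15.5 b, E15.5 c, PN a or PN b (adjusted p up to 0.133). The part of progenitors in the cell cycle values was not tested.

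The mitotic genes Cdk1 and Ccnb2 fell together with Ccnb1, and their promoters show a letter pattern common in this list, so both are printed with it.
Cdk1, the mitotic kinase, was at 4.07, 2.16 and 2.83 at E15.5 and 0.198, 0.863 and 1.26 FPKM in PN (log2 change -1.20, SE 0.33, adjusted p = 0.0251). Ccnb2, cyclin B2, was at 3.86, 9.5996 and 2.89 at E15.5 and 0.198, 1.76 and 0.446 FPKM in PN (log2 change -1.80, SE 0.54, adjusted p = 0.0341).
The call of Cdk1 ended without E15.5 a, E15.5 c, PN a or PN b (adjusted p up to 0.105) and that of Ccnb2 without E15.5 a, E15.5 b, PN a or PN c (adjusted p up to 0.127).
The sequences are the 250 bases before the RefSeq transcript start, on the gene's strand, from RefSeq's GRCm38.p6 table (Cdk1 chr10:69352913-69353162, minus strand, and Ccnb2 chr9:70421555-70421804, minus strand).
Capitals mark CCAAT or its complement ATTGG, the letters bound by the factor NF-Y.

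Cdk1: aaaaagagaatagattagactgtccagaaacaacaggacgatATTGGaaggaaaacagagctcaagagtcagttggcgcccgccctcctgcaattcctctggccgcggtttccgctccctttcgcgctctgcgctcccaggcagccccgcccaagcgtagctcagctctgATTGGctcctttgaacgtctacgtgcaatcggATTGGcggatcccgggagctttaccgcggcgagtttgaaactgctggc
Ccnb2: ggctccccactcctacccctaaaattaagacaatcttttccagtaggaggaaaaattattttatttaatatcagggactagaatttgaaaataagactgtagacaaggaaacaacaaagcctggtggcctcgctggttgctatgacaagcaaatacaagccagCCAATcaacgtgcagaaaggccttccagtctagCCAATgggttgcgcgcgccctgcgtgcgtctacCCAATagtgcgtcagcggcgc

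Each of the 2 windows held 3 matches, in Ccnb2 at 87, 54 and 21 bases before the start on the gene's strand, and in Cdk1 at 208, 80 and 48 bases before the start on the other. Searched on both strands, the pattern stood in 74.2% of the 31 cell cycle genes tested with a promoter in the table, in 41.0% of the 9254 such genes tested and in 33.9% of all 32851 promoters of that length. A gene counted if any of its promoters held the pattern, so shares of genes and the share of promoters are unlike measures. Of genes that fell 44.6% held it, and of genes that rose 34.3%. A match describes these letters and shows no binding.

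Of 79 cytosolic ribosomal protein genes, 18 fell and 1 rose (median log2 change -0.40). In 33 of the 79, every PN library lay below every E15.5 library, beside 20.6% of all genes. Rpl27, of the large subunit, was at 1123, 1011 and 551 at E15.5 and 328, 399 and 301 FPKM in PN (log2 change -1.33, SE 0.29, adjusted p = 0.00745). Rpl32, of the same subunit, was at 4310, 3606 and 2611 at E15.5 and 1754, 1929 and 1635 FPKM in PN (log2 change -0.96, SE 0.23, adjusted p = 0.0127). The 1 that rose was Rps2, of the small subunit, at 673, 528 and 263 at E15.5 and 1729.6, 2649 and 1468 FPKM in PN (log2 change 2.05, SE 0.37, adjusted p = 0.00278), which had been at 2432 ± 777 FPKM (SD, n = 3) at E11.5 and was lowest at E15.5. The call of Rpl32 ended without PN a (adjusted p up to 0.0521). Only 4 of the 19 calls held in all 6 such fits. There were 4 to 23 falls with 1 library left out, fewest without E15.5 a or PN a. Ribosomal protein genes have many near-identical processed copies, so how reads were split between them is uncertain.

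Splicing factors and hnRNP proteins, which bind and cut nascent transcripts, had 15 falls and 3 rises among 61 tested (median log2 change -0.37). There were 5 to 12 falls with 1 library left out, fewest without PN a, and 8 without PN b. The 3 rises became 1 without E15.5 a, E15.5 c or PN a. Hnrnpa2b1 was at 189, 233 and 437 at E15.5 and 43.5, 68.8 and 74.6 FPKM in PN (log2 change -2.12, SE 0.35, adjusted p = 0.00192). Hnrnph2 was at 64.7, 50.5 and 89.6 at E15.5 and 10.2, 14.6 and 21.5 FPKM in PN (log2 change -2.10, SE 0.35, adjusted p = 0.00194). Hnrnpk was at 564, 487 and 727 at E15.5 and 143, 161 and 199 FPKM in PN (log2 change -1.81, SE 0.35, adjusted p = 0.00396). All 3 bind RNA in the nucleus and were lower in every PN library. Of chaperone and unfolded protein response genes, 3 of 25 tested members rose and 7 fell (median log2 change -0.27). Hspd1, the mitochondrial chaperonin, was at 114.4, 137 and 195 at E15.5 and 31.4, 47.4 and 49.6 FPKM in PN (log2 change -1.77, SE 0.31, adjusted p = 0.00244). Pdia4, a protein disulphide isomerase of the endoplasmic reticulum, was at 87.5, 79.6 and 98.7 at E15.5 and 25.3, 26.8 and 31.1 FPKM in PN (log2 change -1.64, SE 0.26, adjusted p = 0.00155). Of proteasome subunits, 4 of 35 tested members rose (11.4%) and 5 fell (14.3%), with 3 falls without E15.5 a. The median log2 change was -0.26, and the shares of all genes were 10.6% and 9.55%. Psmd3 was at 8.08, 12.54 and 10.8 at E15.5 and 59.8, 57.8 and 36.7 FPKM in PN (log2 change 2.18, SE 0.33, adjusted p = 0.00123). Psma5 was at 421, 373 and 295 at E15.5 and 91.7, 141 and 108 FPKM in PN (log2 change -1.68, SE 0.30, adjusted p = 0.00292).

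Of the respiratory chain and ATP synthase, 9 of 79 tested members rose (11.4%) and 10 fell (12.7%), with a median log2 change of -0.12. These shares are near those of all genes, 10.6% and 9.55%. There were 3 to 9 rises with 1 library left out, fewest without PN b. In complex I, Ndufs5 fell from 562, 552 and 263 FPKM to 101, 101 and 50.1 FPKM (log2 change -2.43, SE 0.50, adjusted p = 0.00577) and Ndufa1 from 587, 516 and 247 FPKM to 104, 99.6 and 62.6 FPKM (log2 change -2.27, SE 0.48, adjusted p = 0.00719). In complex IV, Cox7c fell from 2015, 1538 and 1128 FPKM to 328, 483 and 320.1 FPKM (log2 change -2.03, SE 0.30, adjusted p = 9.65e-04), while Cox5a rose from 819, 753 and 685 FPKM to 1717, 1869.5 and 1446 FPKM (log2 change 1.15, SE 0.24, adjusted p = 0.00582). Uqcrfs1, the iron-sulphur protein of complex III, was at 73.7, 119 and 140.1 at E15.5 and 408, 429 and 273 FPKM in PN (log2 change 1.75, SE 0.28, adjusted p = 0.00171). So subunits of complex IV went in opposite directions.

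Immediate early genes, which activity, stress and growth signals switch on within minutes, had the highest share of rises among pathway lists with 20 or more members tested, below that of the microglia and macrophage markers (17 of 22). Of 24 tested 17 rose (median log2 change 2.08), and 13 of the 17 calls held with each library left out in turn. Without PN b 14 rose. Some, such as Klf2 and Junb, were below 1 FPKM in every E15.5 library, so low that a rise was their only possible call. The count is therefore no test of the list. Their FPKM summed to 113, 118 and 90.2 FPKM at E15.5 and 664, 569 and 509 FPKM in PN, with no overlap between stages and little difference among the PN libraries. Gadd45g, a stress-induced gene, was at 14.2, 15.9 and 5.83 at E15.5 and 164, 161 and 122 FPKM in PN (log2 change 3.62, SE 0.38, adjusted p = 1.28e-04), after 240 ± 84.4 FPKM (SD, n = 3) at E11.5. Fos, a subunit of the AP-1 factor, was at 16.2, 18.3 and 16.2 at E15.5 and 175, 112 and 158 FPKM in PN (log2 change 3.04, SE 0.57, adjusted p = 0.00367). Klf2, a Kruppel-like factor, was at 0, 0.0820 and 0 at E15.5 and 13.2, 8.76 and 7.11 FPKM in PN (log2 change 3.34, SE 0.31, adjusted p = 4.90e-05). Junb, a partner of Fos, was at 0, 0.673 and 0 at E15.5 and 15.46, 10.5 and 5.92 FPKM in PN (log2 change 3.20, SE 0.64, adjusted p = 0.00519). Nr4a1, a nuclear receptor that neuronal activity induces, was at 0.996, 0.843 and 0.340 at E15.5 and 8.86, 8.62 and 8.55 FPKM in PN (log2 change 2.51, SE 0.33, adjusted p = 4.98e-04), the narrowest PN range of the 5. Genes that glucocorticoids induce share members with this list, and 4 of 13 rose and 1 fell (4 rises alone without PN b). The metallothionein gene Mt1 was at 4.37, 20.4 and 10.97 at E15.5 and 95.9, 134 and 49.2 FPKM in PN (log2 change 2.97, SE 0.59, adjusted p = 0.00494). Its neighbour Mt2 was at 1.32, 1.24 and 2.41 at E15.5 and 9.91, 16.8 and 11.4 FPKM in PN (log2 change 2.36, SE 0.46, adjusted p = 0.00426). Tsc22d3, a direct target of the receptor, fell (log2 change -0.86, SE 0.25, adjusted p = 0.0316), a call that ended without E15.5 a, E15.5 c, PN a, PN b or PN c (adjusted p up to 0.129). Microglia and macrophage markers were also higher in every PN library (sums of 945 to 7057 FPKM, against 90.6 to 163 FPKM at E15.5), and their part in the immediate early gene values was not tested.

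The promoters of Fos and Nr4a1 are printed because both genes rose and both windows hold more than 1 match to the core of the cyclic AMP response element.
Capitals mark TGACG or its complement CGTCA in the 250 bases before the RefSeq start (GRCm38.p6, Fos chr12:85473640-85473889 and Nr4a1 chr15:101266596-101266845, both plus strand).

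Fos: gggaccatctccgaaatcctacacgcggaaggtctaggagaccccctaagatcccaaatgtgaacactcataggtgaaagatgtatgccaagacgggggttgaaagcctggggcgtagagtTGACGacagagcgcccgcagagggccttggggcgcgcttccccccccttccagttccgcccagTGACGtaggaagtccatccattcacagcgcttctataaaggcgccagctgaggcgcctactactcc
Nr4a1: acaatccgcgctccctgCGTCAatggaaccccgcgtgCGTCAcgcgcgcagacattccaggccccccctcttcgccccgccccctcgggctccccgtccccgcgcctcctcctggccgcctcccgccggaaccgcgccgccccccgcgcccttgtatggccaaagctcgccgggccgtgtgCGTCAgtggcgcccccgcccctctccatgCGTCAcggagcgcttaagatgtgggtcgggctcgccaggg

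In Fos the matches began 129 and 66 bases before the start on the gene's strand, and in Nr4a1 there were 4, at 233, 213, 69 and 40 bases before the start on the other strand. On either strand the letters stood in 13 of the 21 immediate early genes with a promoter in the table (61.9%), in 31.5% of genes tested and in 17.8% of all promoters of this length. A gene again counted if any of its promoters matched, which is unlike the share of promoters. Among genes that rose the share was 28.7%, and among those that fell 33.3%.

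The series maps where Myc-tagged Pet-1 (mycPet-1) sat on chromatin of embryonic hindbrain, in 1 sample with 1 input, earlier than the PN libraries. The labels conflict on that sample, since one field says wild type and another names Pet-1-/- embryos with the transgenes ePet-mycPet-1 and ePet-EYFP. They also give 2 last ages for the embryos, E14.5 and E15.5. The authors' list holds 4934 peaks, and 36.9% of the 9254 tested genes that matched RefSeq by name had a peak within the gene or 5 kb before its start. Of genes that rose 25.7% had one (242 of 940), of genes that fell 39.4% (344 of 874) and of genes not called 38% (2829 of 7440). For a peak over the promoter itself the shares were 18.6%, 34.7% and 31.5%, against 30.5% of all. These shares are given without a test. The score of a peak is the authors' own value. Among the named genes called changed, the highest scores were on Hnrnpk (score 785, chr13:58401101-58403527), Ptma (702, chr1:86524391-86527111), Camk2d (554, chr3:126595888-126597702) and Rpl27 (513, chr11:101441862-101443040), in mm10, the first, the second and the fourth on genes that fell. Ptma, prothymosin alpha, a small acidic nuclear protein, was at 3759.5, 3279 and 5396 at E15.5 and 1546, 1883 and 2364 FPKM in PN (log2 change -1.09, SE 0.27, adjusted p = 0.0159), a call that ended without E15.5 c or PN a (adjusted p up to 0.0786). Gata2, which fell, carried 4 peaks with a top score of 297, and Sox11 carried 3 with a top score of 281. Kcnc1, a Shaw-type potassium channel gene that rose (log2 change 1.36, SE 0.36, adjusted p = 0.0203), had a peak of score 351 outside its promoter window, and its call ended without E15.5 a, E15.5 c, PN a, PN b or PN c (adjusted p up to 0.0675).

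Promoters of 4 genes under peaks are printed to show the letters that ETS factors such as Pet-1 bind.
Capitals mark CGGAAG or its complement CTTCCG in the 250 bases before a RefSeq transcript start in GRCm38.p6. The windows are Hnrnpk chr13:58402118-58402367 (minus strand), and Ptma chr1:86526307-86526556, Rps2 chr17:24719813-24720062 and Camk2d chr3:126596701-126596950 (plus strand). For each gene the first listed promoter that overlapped the peak was taken. In Hnrnpk, Rps2 and Camk2d this window lies inside the gene, whose outermost start is at 58403343, 24718121 and 126595487, so it belongs to another start.
Hnrnpk and Ptma fell, and Rps2 (peak score 163) and Camk2d rose.

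Hnrnpk: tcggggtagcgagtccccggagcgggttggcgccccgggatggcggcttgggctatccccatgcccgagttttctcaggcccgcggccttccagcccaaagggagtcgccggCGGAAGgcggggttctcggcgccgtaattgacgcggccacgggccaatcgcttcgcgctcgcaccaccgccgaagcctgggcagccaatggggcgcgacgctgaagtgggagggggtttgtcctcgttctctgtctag
Ptma: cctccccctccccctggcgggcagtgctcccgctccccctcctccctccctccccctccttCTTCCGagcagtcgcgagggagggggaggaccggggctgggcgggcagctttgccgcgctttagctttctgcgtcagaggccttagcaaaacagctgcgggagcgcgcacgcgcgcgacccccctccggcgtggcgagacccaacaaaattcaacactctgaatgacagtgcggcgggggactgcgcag
Rps2: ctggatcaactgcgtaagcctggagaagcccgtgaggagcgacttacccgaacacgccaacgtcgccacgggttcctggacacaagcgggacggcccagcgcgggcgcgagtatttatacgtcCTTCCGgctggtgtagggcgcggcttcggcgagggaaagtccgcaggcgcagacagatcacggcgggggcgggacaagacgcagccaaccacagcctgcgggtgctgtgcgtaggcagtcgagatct
Camk2d: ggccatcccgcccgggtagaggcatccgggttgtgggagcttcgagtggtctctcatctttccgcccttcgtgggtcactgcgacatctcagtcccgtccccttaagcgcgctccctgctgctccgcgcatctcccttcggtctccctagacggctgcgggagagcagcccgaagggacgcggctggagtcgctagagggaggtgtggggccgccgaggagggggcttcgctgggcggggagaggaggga

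The match lay 138 bases before the start in Hnrnpk on the gene's strand, and 189 and 127 bases before the start in Ptma and Rps2 on the other strand. The window of Camk2d held none of these letters. Over genes tested, 42.7% of the 2822 with a peak over the promoter held the letters, against 23.6% of the 6432 without, and 13.6% of all promoters of this length did. Here too a gene counted if any of its promoters matched, unlike the share of promoters. Among genes that rose the share was 21.2%, and among those that fell 33.6%.

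The authors' deposited table of Pet-1 knockout against wild type at E15.5, from NuGEN libraries that share no sample with the stages, was set beside the stage calls. At q below 0.05 and at least 1.5-fold in that table, 4.3% of 11469 genes were lower in the knockout and 7.73% were higher. Among the stage rises 2.58% were lower and 12.6% higher in the knockout, and among the stage falls 10.2% were lower and 6.96% higher. Among genes with no stage call the shares were 3.8% and 7.21%. In the authors' deposited table Slc6a4, which rose after E15.5, was at 67.6 FPKM in the wild type and 9.05 FPKM in the knockout (log2 ratio -2.90, q = 0.00206). Cntn1, which also rose, was at 25.6 FPKM in the wild type and 9.05 FPKM in the knockout (log2 ratio -1.50, q = 0.00206) in the authors' deposited table. In the same authors' deposited table Calb2, a riser, was at 22.9 FPKM in the wild type and 289 FPKM in the knockout (log2 ratio 3.66, q = 0.00206), and Tac1, another riser, was at 2.31 FPKM in the wild type and 13.1 FPKM in the knockout (log2 ratio 2.504, q = 0.00206). Risers were thus found both lower and higher in the knockout. Of genes that fell, the authors' deposited table had Maob at 23.3 FPKM in the wild type and 8.32 FPKM in the knockout (log2 ratio -1.48, q = 0.00206) and Ss18, a subunit of the BAF complex, at 18.9 FPKM in the wild type and 8.95 FPKM in the knockout (log2 ratio -1.08, q = 0.00206). Ss18 itself went from 17.8, 18.9 and 20.6 FPKM at E15.5 to 1.51, 1.56 and 0.350 FPKM in PN (log2 change -3.29, SE 0.35, adjusted p = 1.44e-04). The authors' deposited table had Htr3a at 4.30 FPKM in the wild type and 9.27 FPKM in the knockout (log2 ratio 1.11, q = 0.00206) and Slc12a5 at 3.55 FPKM in the wild type and 6.52 FPKM in the knockout (log2 ratio 0.88, q = 0.0144). The authors' deposited Clontech table, whose wild type is the E15.5 group of the stages, also had Slc6a4 and Maob lower and Calb2 and Tac1 higher in the knockout (log2 ratios -2.04, -1.28, 3.47 and 2.32). In the authors' deposited Clontech table Cntn1 (log2 ratio -0.67, q = 0.0507), Ss18 (log2 ratio -0.65, q = 0.0900), Htr3a (log2 ratio 0.30, q = 0.646) and Slc12a5 (log2 ratio 0.91, q = 0.0761) did not pass.

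The interval after E15.5 differed from the one before it for 2658 of the 11741 genes tested (22.6%, limma adjusted p below 0.05 for the difference), with the E15.5 libraries shared by both. Among the genes that fell with the largest such differences were Anxa1 and Anxa2, calcium-dependent membrane proteins, and Otor, a secreted protein best known from the cochlea. Anxa1 went from 0.00657 ± 0.0114 FPKM (SD, n = 3) at E11.5 to 21.99, 77.4 and 58.6 FPKM at E15.5 and to 0.805, 4.98 and 2.95 FPKM in PN (log2 change -3.77, SE 0.52, adjusted p = 6.40e-04), and its earlier and later changes differed by -9.33 on the log2 scale, adjusted p = 8.18e-05. Otor went from 20.8 ± 4.33 FPKM (SD, n = 3) to 157, 71.6 and 119 FPKM and to 1.89, 0.0282 and 0.0339 FPKM (log2 change -6.26, SE 0.44, adjusted p = 4.52e-06), with a difference of -8.63 on the log2 scale, adjusted p = 3.54e-05. Anxa2 was at 0.692 ± 1.17 FPKM (SD, n = 3) at E11.5, at 32.3, 72.6 and 36.4 FPKM at E15.5 and at 2.06, 6.51 and 2.54 FPKM in PN (log2 change -3.38, SE 0.52, adjusted p = 0.00130). All 3 were higher in these E15.5 libraries than at the stages on either side. The authors' deposited table of the NuGEN wild type at E15.5, normalised separately, gives Anxa1 at 5.52, Anxa2 at 3.53 and Otor at 38.3 FPKM. In that table Anxa1 and Anxa2 are far below their values in the libraries compared, and Anxa2 lies within the PN range. Of the rises above, it has Sstr1 at 14.6 FPKM, within its PN range, and Gabrb1 at 24.0 FPKM, just below its PN range. It has Tac1 at 2.31 and Slc12a5 at 3.55 FPKM, far below their PN values. Among rises, the 6 largest differences were all of genes listed at 0 in every E15.5 library, Mtrnr2l and 5 small RNA genes.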

How the data were processed

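RNA of sorted EYFP+ cells was sequenced, and the deposited FPKM per gene and library were made by the authors with TopHat2 and Cufflinks, per the submitters' processing notes, which give the builds mm9 and mm10 without saying which file used which. The stage table names its E15.5 columns without a kit, and they were taken as the Clontech libraries. It has 3 columns that match no sample here and were not used, and 25 rows whose symbols were turned into dates were not renamed. The authors' deposited Cuffdiff tables gave p-values and q-values, and their log2 ratios of knockout over wild type. The deposited peak list gives a score per peak, and peaks were called by the authors with BWA and MACS 1.4.2, per the submitters' processing notes, in mm10 as the authors labelled the list. Genes were joined to peaks and promoters by name (9254 of 11741 genes tested matched RefSeq GRCm38.p6). The 14 genes with a failed estimate in the matching Cuffdiff table were left out.

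Values were tested as log2(FPKM + 1) with limma 3.58.1 in R 4.3.3, with a mean-variance trend and Benjamini-Hochberg adjustment, over the 9 wild-type libraries of E11.5, E15.5 and PN (6 residual degrees of freedom). Genes needed at least 1 FPKM in at least 3 libraries. A gene that reached this only in PN could be called only as a rise, and one that reached it only at E15.5 only as a fall. The limma fit was tested on simulated data. With FPKM alone, depth per library is unknown and no interval for counting error is given. Alternatives were other pseudocounts, filters, scalings, variance models and library sets, the authors' Cuffdiff call, and leaving out each library. The members and gene lists were chosen with earlier results of these data known. Named genes are the 15 rises and 15 falls with the largest log2 change among called genes whose groups do not overlap and whose higher mean is at least 10 FPKM, the 8 in each direction with the largest difference of mean FPKM, the 10 with the highest mean per group, 4 called members per list by log2 change and up to 2 uncalled by level, all members of the serotonin lists and defining cell markers, up to 10 of these with a peak, and up to 6 per direction by interval difference; not all are described, and some are not reported here. Chosen after their values were seen were Cd24a, Chgb, Ncam1, Oprl1, Cdk1, Ccnb2, Cox5a, Uqcrfs1, Nr4a1, Tsc22d3, the largest rises outside small RNAs and outside genes at 0 at E15.5, and the motifs and promoters.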

Additional observations from a re-analysis of the deposited data

How the results depend on the processing

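The E15.5 to PN counts kept within 1.5 times of 2370 called, 1249 higher and 1121 lower under every pseudocount, filter, scaling and variance setting run, with 1904 to 3349 genes called. The authors' deposited Cuffdiff test called 3846 genes, 1829 higher and 2017 lower, of which 1984 were among the 2370, and the cause was not tested. No setting turned the direction of a gene called. With 1 library left out, genes called ranged from 1325 to 1817, higher from 798 to 989, lower from 527 to 828 and interval differences from 1450 to 2461, with fewer libraries in each fit. The interval difference held 2127 to 3257 genes under the other settings. The share of higher calls was 52.7% in the fit reported, 58.2% with upper quartile scaling, 45.2% with each library centred on its median and 47.9% after quantile normalisation. Of the 148 genes tested across settings for the text, 132 were called and 86 of these were called under every setting run. The files give no read numbers, so what depth limits cannot be stated beyond the low FPKM of the genes concerned. No paired analysis was possible because the columns of the stage table carry no replicate number of the labels.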

Other observations

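Some large changes belonged to no comparison above. Chchd10, a mitochondrial protein of the intermembrane space, rose from 0.698, 2.30 and 1.08 FPKM at E15.5 to 45.3, 108 and 12.6 FPKM in PN (log2 change 4.17, SE 0.63, adjusted p = 0.00118). Selm, a selenoprotein of the endoplasmic reticulum, rose from 58.8, 56.7 and 30.1 FPKM to 789.8, 959.9 and 462 FPKM (log2 change 3.89, SE 0.36, adjusted p = 4.49e-05). Agt, the angiotensin precursor that astrocytes make in the brain, was at 0, 1.90 and 0.0209 at E15.5 and 17.1, 65.97 and 14.8 FPKM in PN (log2 change 4.22, SE 0.56, adjusted p = 5.15e-04). Of 17 astrocyte and radial glia markers tested 3 rose and 2 fell, and the part of these cells in the Agt values was not tested. For Chchd10, Selm and Agt every PN library lay above every E15.5 library. With a library left out the log2 change lay for Chchd10 between 3.47 and 4.97, moved over 1.5 times without PN b or PN c, and for Agt between 3.55 and 4.72, without PN b. Of glycolysis and lactate genes, 3 of 24 tested members rose and 4 fell (median log2 change 0.15), with 2 to 3 falls with 1 library left out, fewest without E15.5 a, E15.5 b, PN a or PN c. Its rises lost their calls without E15.5 a or PN a. Pfkl, the liver-type phosphofructokinase, was at 73.9, 74.3 and 44.3 at E15.5 and 19.1, 15.8 and 7.64 FPKM in PN (log2 change -2.15, SE 0.36, adjusted p = 0.00210). Eno1, enolase, was at 913, 746 and 493 at E15.5 and 211, 304 and 166 FPKM in PN (log2 change -1.66, SE 0.30, adjusted p = 0.00307). Of cholesterol and fatty acid synthesis genes, 3 of 28 tested members rose (10.7%) and 4 fell (14.3%), beside 10.6% and 9.55% of all genes. The median log2 change was -0.12. With 1 library left out there were 1 to 3 rises, fewest without E15.5 a, E15.5 c, PN a, PN b or PN c. Falls then numbered 1 to 3, fewest without E15.5 b or PN a. Idi1, an early enzyme of isoprenoid synthesis, was at 22.5, 20.4 and 32.4 at E15.5 and 3.66, 3.36 and 5.13 FPKM in PN (log2 change -2.36, SE 0.36, adjusted p = 0.00119). Of hypoxia responsive genes, 1 of 14 tested rose (7.14%, below the 10.6% of all genes). It was Ndrg1, a gene of stress and differentiation, at 3.30, 3.49 and 1.85 at E15.5 and 15.6, 9.79 and 8.12 FPKM in PN (log2 change 1.63, SE 0.36, adjusted p = 0.00791).

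Many small nucleolar RNA and microRNA genes were listed at 0 at E15.5. The table holds 734 such genes, of which 68 were tested, 31 rose and 1 fell. Of the 31, 28 were listed at 0 FPKM in all 3 E15.5 libraries, as were 20 of the other genes that rose. Of the 68 tested, 53 were at 0 in every E15.5 library and 11 in every E11.5 library. Snord12, with the largest log2 change of all genes tested, was listed at 0 FPKM in all E15.5 libraries and at 2516, 1524 and 862 FPKM in PN, after 1936 ± 1026 FPKM (SD, n = 3) at E11.5. Mir703 went the other way, from 4731, 1703 and 1563 FPKM at E15.5 to 105, 63.3 and 46.4 FPKM in PN (log2 change -5.09, SE 0.45, adjusted p = 3.08e-05). FPKM of genes this short depend on few fragments, and a value of 0 can be a failed estimate, so no fold is given for those at 0.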
